A study of Mus musculus with 8 samples.

Results

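The kinases that activate the transcription factor NF-kB and the proteins that restrain it were examined in 4T1 cells, a mouse mammary carcinoma line, as 10 genes chosen by name: Zc3h12a, Tnfaip3, Tnip1, Tnip2, Cyld, Ikbke, Tbk1, Chuk, Ikbkb and Ikbkg. All 10 were found among the 24787 rows of the deposited table, and all 10 passed the filter on low values. The study sequenced RNA from 4 libraries labelled as Etv5 knockdown, carrying an shRNA against the ETS factor gene Etv5, and 4 labelled as wild type, carrying a control shRNA. The file headers name 1 construct per group, so no other shRNA against Etv5 stands beside it, and no treatment is named. Whether replicates came from separate cultures is not labelled, so the p-values given here reflect spread between libraries that may be technical. The question addressed here is which of these genes differ in tumour cells when Etv5 is targeted.

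In resting cells NF-kB dimers are held in the cytoplasm by IkB proteins. The IKK complex, made of the kinases IKKα (Chuk) and IKKβ (Ikbkb) and the scaffold NEMO (Ikbkg), phosphorylates IkB, which is then degraded, and the dimers enter the nucleus. The related kinases IKKε (Ikbke) and TBK1 (Tbk1) phosphorylate interferon regulatory factors and act at several points of the NF-kB pathway. Feedback comes from the ubiquitin-editing enzyme A20 (Tnfaip3), its ubiquitin-binding partners ABIN1 (Tnip1) and ABIN2 (Tnip2), the deubiquitinase CYLD (Cyld), and Regnase-1 (Zc3h12a), an RNase that destroys inflammatory transcripts such as that of Il6. A20, ABIN1, Regnase-1, IKKε and CYLD are known as products of genes that NF-kB itself induces, while IKKα, IKKβ, NEMO and TBK1 are known as broadly expressed components.

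Promoter sequences are shown for the genes whose libraries separated most clearly by label, Zc3h12a, Ikbke and Tnip1, and for Tnfaip3, a known NF-kB target whose libraries did not. Each is the RefSeq window on GRCm38.p6 (the assembly called mm10) from 250 bases before to 50 bases after the start that lies furthest upstream. Capitals mark matches, on either strand, to the kappa B motif and to the ETS words CCGGAA and AGGAAG.
Zc3h12a, chr4:125127832-125128131, minus strand: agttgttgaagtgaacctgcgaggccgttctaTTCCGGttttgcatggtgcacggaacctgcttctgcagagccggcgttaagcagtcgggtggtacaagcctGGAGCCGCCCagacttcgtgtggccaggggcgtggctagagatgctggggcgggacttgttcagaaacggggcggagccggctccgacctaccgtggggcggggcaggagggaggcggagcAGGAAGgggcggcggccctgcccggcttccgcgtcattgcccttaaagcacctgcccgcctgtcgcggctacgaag
Ikbke, chr1:131279514-131279813, minus strand: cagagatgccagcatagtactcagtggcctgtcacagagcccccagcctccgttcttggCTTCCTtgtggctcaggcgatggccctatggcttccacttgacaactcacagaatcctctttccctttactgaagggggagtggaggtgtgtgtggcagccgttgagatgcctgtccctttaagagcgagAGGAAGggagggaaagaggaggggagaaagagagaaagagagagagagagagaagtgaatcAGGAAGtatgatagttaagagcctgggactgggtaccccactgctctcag
Tnip1, chr11:54962891-54963190, minus strand: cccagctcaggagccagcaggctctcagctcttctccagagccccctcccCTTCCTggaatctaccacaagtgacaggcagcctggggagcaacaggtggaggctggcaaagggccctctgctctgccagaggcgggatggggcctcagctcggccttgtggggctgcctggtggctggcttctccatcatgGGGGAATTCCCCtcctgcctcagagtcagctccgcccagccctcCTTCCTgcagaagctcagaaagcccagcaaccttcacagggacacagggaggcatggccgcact
Tnfaip3, chr10:19015361-19015660, minus strand: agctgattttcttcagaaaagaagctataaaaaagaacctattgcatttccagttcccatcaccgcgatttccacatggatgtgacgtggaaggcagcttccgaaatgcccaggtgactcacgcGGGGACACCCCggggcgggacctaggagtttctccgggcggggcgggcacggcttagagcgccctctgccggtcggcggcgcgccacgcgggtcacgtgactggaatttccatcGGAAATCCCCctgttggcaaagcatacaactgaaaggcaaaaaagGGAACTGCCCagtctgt
The Tnip1 window held 3 kappa B matches that overlap in a single run of bases, and the word AGGAAG in 2 places. The Tnfaip3 window held 4 kappa B matches, of which 2 overlap each other, and neither ETS word. The Zc3h12a window held 1 kappa B match, 1 CCGGAA and 1 AGGAAG. The Ikbke window held no kappa B match and AGGAAG in 3 places, of which the one at the start site shares 1 base with a match to the AP-1 word TGANTCA. The Tnfaip3 window also held 1 match to TGANTCA, and those of Zc3h12a and Tnip1 held none. Another Tnfaip3 window, at a start further downstream and not shown, held 1 kappa B match and 1 AGGAAG. Of all 32851 RefSeq windows of this length, 26.8% held the kappa B motif, 35.4% AGGAAG, 14.9% CCGGAA and 7.81% TGANTCA. A match is a string of letters and not a bound site. Windows were found for 9 of the 10 genes, all but Ikbkb. Among those not shown, the Chuk window held 2 kappa B matches and 2 CCGGAA, and that of Cyld 1 kappa B match and 1 AGGAAG. The Tnip2 window held 1 kappa B match and 1 CCGGAA, and that of Tbk1 1 CCGGAA. The Ikbkg window furthest upstream held 1 kappa B match and 1 TGANTCA. Further downstream, Ikbkg window 2 held 1 TGANTCA, and window 3 held 1 kappa B match and 1 AGGAAG. Its window 4 held 1 kappa B match, 1 TGANTCA and 3 CCGGAA.

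Each value is the average read coverage over the bases of a gene, scaled to library depth and called a coverage value, so levels of different genes can be compared per length. They summed to between 254792 and 390495 per library, the highest being Etv5 shRNA replicate 3. That library stood apart: its score was 93.3 on principal component 1, which held 81.9% of the variance, where control replicate 3 came next with 12.8. Against the median over libraries, its genes with the shortest transcripts, up to 1842 bases, had a median deviation of 0.43 on the log2 scale, and those of 4500 bases or more one of -1.06. Results for the 10 genes are therefore given with it and without it. For control replicate 3 the same deviations were 0.27 and -0.29, and that control was kept in both fits. Etv5 itself had coverage values of 13.0, 11.2, 7.52 and 12.7 with the Etv5 shRNA, against 15.2, 15.1, 11.7 and 14.4 with the control shRNA. Its RNA thus did not separate the groups, which overlapped through control replicate 3 alone. The log2 fold change of Etv5 was -0.33 (limma adjusted p 0.818), and -0.17 without Etv5 shRNA replicate 3 (limma adjusted p 0.422). As for cell type, 9 of 10 epithelial markers passed the filter, with a median log2 fold change of 0.32, and 0.22 without Etv5 shRNA replicate 3. Epcam had the only negative value over 8 libraries (-0.07). None was called over 8 libraries by limma, and 2 were higher at an unadjusted p under 0.05. Cdh1 was called higher without Etv5 shRNA replicate 3 (log2 fold change 0.71, limma adjusted p 0.00454), and the groups did not overlap for Krt14, higher at 0.64 over 8 libraries and 0.41 without that library. Of 16 leukocyte markers only Cd68 passed, 5 were at 0 in every library, and their summed values were 3.05 to 3.72 with the Etv5 shRNA, against 3.54 to 5.31 with the control shRNA. Of 9 fibroblast markers only Pdgfra passed, and Dcn and Lum were at 0 in every library. Summed, the 9 fibroblast markers were at 0.686 to 2.59 with the Etv5 shRNA, against 2.76 to 3.66 with the control shRNA. Pdgfra made up most of these sums, at 0.519 to 2.15 with the Etv5 shRNA and 2.54 to 3.54 with the control shRNA. No other fibroblast marker exceeded 0.357. With no filter, the log2 fold changes of those not at 0 throughout ran from -0.02 for Thy1 to 0.09 for Col1a1. Pdgfra was called lower without Etv5 shRNA replicate 3 (log2 fold change -0.50, limma adjusted p 0.0451), and the part of the epithelial and fibroblast markers in the results was not tested. No endothelial marker exceeded 0.0632. In bulk RNA, fewer cells of a type and less RNA per cell cannot be told apart.

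Of the 10 genes, Zc3h12a and Ikbke were lower with the Etv5 shRNA and none was higher, over 8 libraries at an adjusted p under 0.05 by limma. By the same call 0.487% of the 11715 genes tested were lower and 0.00854% higher. At an unadjusted p under 0.05, 3 of the 10 were lower and none higher, beside 5.99% of all genes lower and 1.11% higher. Without Etv5 shRNA replicate 3, Tnip1 joined them, so that 3 of 10 were lower and none higher, beside 2.06% of all genes lower and 1.08% higher. The libraries of the groups did not overlap for Zc3h12a, Ikbke, Tnip1 and Tnip2, all lower. In the exact two-sided permutation test of the deposited values each of these 4 had p = 0.0286, unadjusted and the smallest that 70 assignments allow. A gap in that direction was present for 7.59% of all genes, and in the other direction for 1.52%. All 10 log2 fold changes were negative over 8 libraries, as were those of 8078 of the 11715 genes tested, but that of Cyld was 0.04 with median-of-ratios scaling, and those of Tnfaip3, Cyld, Chuk and Ikbkb were positive without Etv5 shRNA replicate 3. The median was -0.21 for the 10 and -0.11 for all genes, and without that library -0.14 and 0.00. Median-of-ratios scaling moved the median of all genes to 0.02, and the log2 fold changes of Zc3h12a, Ikbke and Tnip1 were then -2.20, -0.88 and -0.45.

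**Figure D1:**
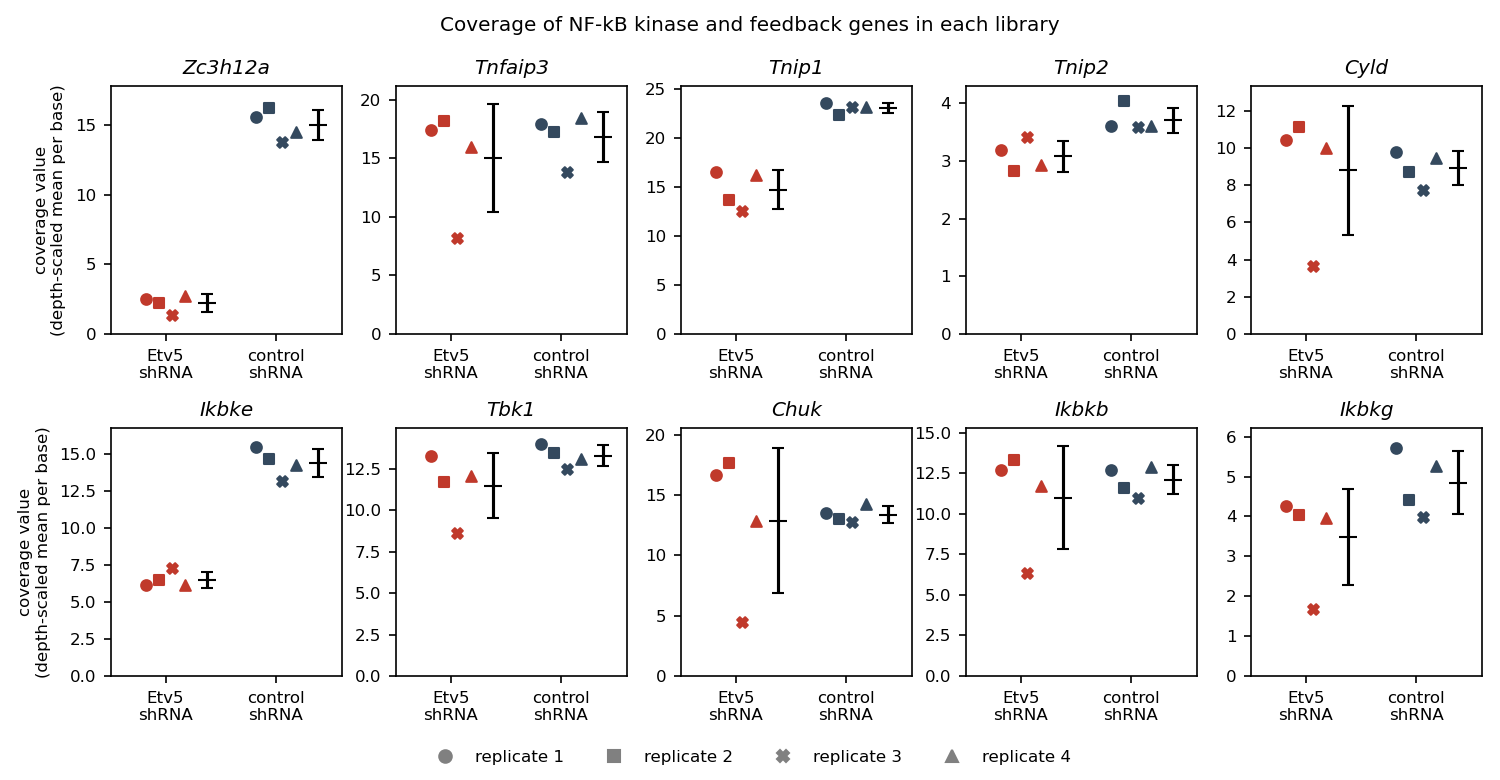
Coverage values (y axis, depth-scaled mean per base, each panel with its own scale from 0) of the 10 genes in 4 Etv5 shRNA and 4 control shRNA libraries (x axis), with a marker shape per replicate number and the mean with SD as a black bar. The groups are apart for Zc3h12a, Ikbke, Tnip1 and, by a small gap, Tnip2, while Etv5 shRNA replicate 3 is the lowest library of its group for 8 of the 10 genes.

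Zc3h12a, the Regnase-1 gene, had the largest log2 fold change of the 10. On mm10 it spans chr4:125118423-125127840, minus strand, and its annotated coding transcript has 6 exons. Its coverage values were 2.53, 2.25, 1.35 and 2.75 with the Etv5 shRNA, against 15.6, 16.2, 13.8 and 14.5 with the control shRNA. Every Etv5 shRNA library was far below every control. The means were 2.22 ± 0.617 with the Etv5 shRNA and 15.0 ± 1.08 with the control shRNA (SD, n = 4 each), 6.77-fold lower, and 5.98-fold lower without replicate 3 of that group. On the log2(value + 1) scale the change was -2.33 (95% interval -2.73 to -1.94, limma adjusted p 0.000581). It was -2.19 without Etv5 shRNA replicate 3 (limma adjusted p 2.63e-06). Among controls Zc3h12a ranked below only Tnip1 and Tnfaip3 by mean level, and with the Etv5 shRNA it ranked last.

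Tnfaip3, which encodes A20, was not called in either fit. The gene is on chromosome 10 from 19000910 to 19015657, minus strand. It had 17.4, 18.2, 8.20 and 16.0 with the Etv5 shRNA, against 17.9, 17.2, 13.8 and 18.4 with the control shRNA. In both groups replicate 3 was the lowest, and the other libraries of the groups overlapped. The log2 fold change was -0.21 (95% interval -0.76 to 0.34, limma adjusted p 0.879). Without Etv5 shRNA replicate 3 it was 0.04, with a 95% interval from -0.21 to 0.28 (limma adjusted p 0.880), so a change of the size seen for Zc3h12a or Ikbke lies outside that interval. The means were 15.0 ± 4.59 with the Etv5 shRNA and 16.8 ± 2.11 with the control shRNA (SD, n = 4 each).

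Tnip1 and Tnip2 encode ABIN1 and ABIN2, which bind ubiquitin chains and A20. Tnip1 is on chromosome 11 from 54910785 to 54962917, minus strand, and had the highest mean level of the 10 in controls. It held 16.5, 13.6, 12.5 and 16.2 with the Etv5 shRNA, against 23.5, 22.3, 23.1 and 23.1 with the control shRNA. The groups did not overlap, and the means were 14.7 ± 1.96 with the Etv5 shRNA and 23.0 ± 0.503 with the control shRNA (SD, n = 4 each), 1.57-fold lower. The log2 fold change of -0.62 (95% interval -0.92 to -0.33) did not pass over 8 libraries (limma adjusted p 0.131). It passed without Etv5 shRNA replicate 3, at -0.55 (limma adjusted p 0.0112). Tnip2, on chromosome 5 from 34496087 to 34513991, minus strand, had the lowest level of the 10 in controls. Its values were 3.18, 2.82, 3.41 and 2.92 with the Etv5 shRNA, against 3.60, 4.03, 3.58 and 3.60 with the control shRNA. The gap between the groups was small, and the log2 fold changes of -0.21 over 8 libraries and -0.24 without Etv5 shRNA replicate 3 did not pass (limma adjusted p 0.834 and 0.174). Tnip3, the remaining ABIN gene, lay under the filter, at 0.0341, 0.0867, 0.0747 and 0.0629 with the Etv5 shRNA, against 0.565, 0.437, 0.365 and 0.325 with the control shRNA. Its groups did not overlap. With no filter on low values it was called lower, at a log2 fold change of -0.42 (limma adjusted p 0.0205 over 17674 genes), on a scale that compresses values this low.

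Cyld, whose product cuts linear and lysine-linked ubiquitin chains, is on chromosome 8 from 88697028 to 88751945, plus strand. Its values were 10.4, 11.1, 3.63 and 9.999 with the Etv5 shRNA, against 9.79, 8.70, 7.73 and 9.46 with the control shRNA. Replicate 3 was the lowest of the Etv5 shRNA group by a wide gap, and the other 3 libraries of that group were above every control. The log2 fold change was -0.11 over 8 libraries (limma adjusted p 0.921) and 0.22 without Etv5 shRNA replicate 3 (limma adjusted p 0.269). Neither passed, and the sign depended on that library. Without it 9.77% of all genes were higher with no overlap between groups, and 10.4% were lower.

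The kinase gene Ikbke is on chromosome 1 from 131254343 to 131279606, minus strand. It had 6.16, 6.47, 7.28 and 6.13 with the Etv5 shRNA, against 15.5, 14.7, 13.2 and 14.3 with the control shRNA. The groups were far apart, and replicate 3 was the highest Etv5 shRNA library here. The means were 6.51 ± 0.536 with the Etv5 shRNA and 14.4 ± 0.963 with the control shRNA (SD, n = 4 each), 2.22-fold lower, and 2.31-fold lower without Etv5 shRNA replicate 3. The log2 fold change was -1.04 (95% interval -1.32 to -0.76, limma adjusted p 0.00727), and -1.09 without that library (limma adjusted p 0.000185). The call over 8 libraries was lost without control replicate 1, 2 or 4 (limma adjusted p 0.0554, 0.0633 and 0.0510). It was also lost with median-of-ratios scaling (0.137), quantile normalization (0.0651) and the length trend removed (0.0517), while the log2 fold change stayed between -1.14 and -0.88 in all 22 alternative settings.

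Tbk1, which encodes the kinase most closely related to IKKε, is on chromosome 10 from 121546455 to 121586787, minus strand. Its values were 13.3, 11.7, 8.65 and 12.1 with the Etv5 shRNA, against 14.0, 13.5, 12.5 and 13.1 with the control shRNA. The groups overlapped, and no call was made with or without Etv5 shRNA replicate 3 (log2 fold changes -0.21 and -0.09, limma adjusted p 0.876 and 0.578). Without that library the 95% interval ran from -0.28 to 0.09. Within each library the ratio of Ikbke to Tbk1, which no library scaling can change, was 0.464, 0.551, 0.842 and 0.505 with the Etv5 shRNA, against 1.11, 1.09, 1.06 and 1.09 with the control shRNA. Ikbke thus exceeded Tbk1 per base in every control and was below it in every Etv5 shRNA library. The log2 ratio differed by -0.92 (exact two-sided permutation test, p = 0.0286, the smallest that 70 assignments allow). Adjusted over the 4 ratios examined, the permutation p was 0.0571.

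The genes of the IKK complex did not pass in either fit. Chuk, on chromosome 19 from 44073335 to 44107480, minus strand, had 16.7, 17.7, 4.51 and 12.9 with the Etv5 shRNA, against 13.5, 13.0, 12.8 and 14.3 with the control shRNA. Within the Etv5 shRNA group its SD of 5.98 was the largest of the 10, while in controls it was 0.684. Etv5 shRNA replicate 3 was the lowest of all libraries, and replicates 1 and 2 of that group were above every control. Its log2 fold change was -0.19 over 8 libraries and 0.21 without Etv5 shRNA replicate 3 (limma adjusted p 0.895 and 0.355). Ikbkb, on chromosome 8 from 22659212 to 22706589, minus strand, had 12.7, 13.3, 6.38 and 11.7 with the Etv5 shRNA, against 12.7, 11.6, 11.0 and 12.9 with the control shRNA. Apart from replicate 3 the libraries of its groups were mixed in rank, with log2 fold changes of -0.16 and 0.06 (limma adjusted p 0.882 and 0.758). Ikbkg, on the X chromosome from 74393290 to 74453854, plus strand, had 4.25, 4.03, 1.69 and 3.96 with the Etv5 shRNA, against 5.72, 4.42, 3.99 and 5.26 with the control shRNA. Each Etv5 shRNA library was below at least 3 of the 4 controls, and the groups overlapped. The log2 fold change was -0.42 over 8 libraries and -0.19 without Etv5 shRNA replicate 3 (limma adjusted p 0.818 and 0.407). Without that library and with the length trend removed, Ikbkg passed at -0.29 (limma adjusted p 0.0438).

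**Figure D2:**
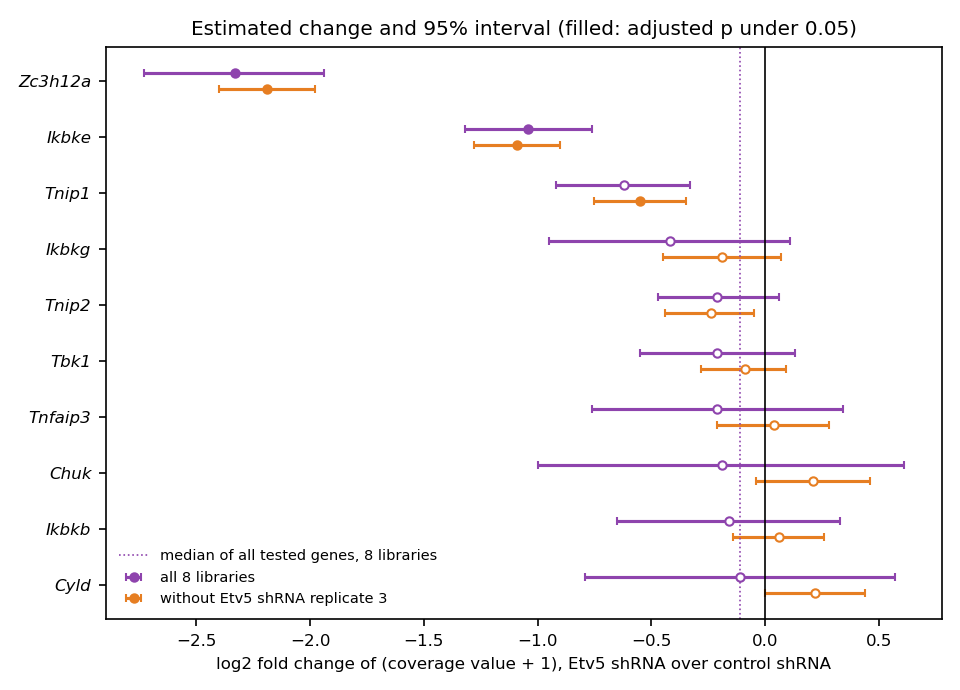
Log2 fold change of coverage value + 1 (x axis, Etv5 shRNA over control shRNA) with its 95% interval for each of the 10 genes (rows), over all 8 libraries in purple and without Etv5 shRNA replicate 3 in orange; filled points have a limma adjusted p under 0.05. Zc3h12a and Ikbke are filled in both, at -2.33 and -1.04 over 8 libraries, Tnip1 is filled without replicate 3, at -0.55, and the intervals of Chuk, Cyld and Tnfaip3 narrow when that library is left out. The dotted line marks the median of all tested genes, -0.11.

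Neither that ratio nor the other 3 between partners passed 0.05 after adjustment. The ratios of Ikbke to Tbk1 and Ikbkb to Ikbkg were at the smallest exact permutation p, 0.0286, which adjusted to 0.0571. Without more ratios at that p, even complete separation of the groups could not pass. The ratio of Ikbkb to Ikbkg was 2.98, 3.31, 3.77 and 2.96 with the Etv5 shRNA, against 2.22, 2.62, 2.77 and 2.45 with the control shRNA. These groups did not overlap, with a log2 difference of 0.37 (exact two-sided permutation test, p = 0.0286, adjusted 0.0571), and one of 0.30 without Etv5 shRNA replicate 3 (exact permutation p = 0.0571, adjusted 0.0762). The ratio of Tnip1 to Tnfaip3 was 0.945, 0.748, 1.53 and 1.01 with the Etv5 shRNA, against 1.31, 1.30, 1.68 and 1.25 with the control shRNA. The groups overlapped through Etv5 shRNA replicate 3, and replicate 3 was the highest in both groups. The log2 difference was -0.43 (exact permutation p = 0.114, adjusted 0.152) over 8 libraries and -0.62 without that library, where the groups did not overlap (exact permutation p = 0.0286, the smallest that 35 assignments allow, adjusted 0.0571). The ratio of Chuk to Ikbkb was 1.31, 1.33, 0.706 and 1.10 with the Etv5 shRNA, against 1.07, 1.12, 1.16 and 1.11 with the control shRNA, and its groups overlapped (exact permutation p = 0.914).

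**Figure D3:**
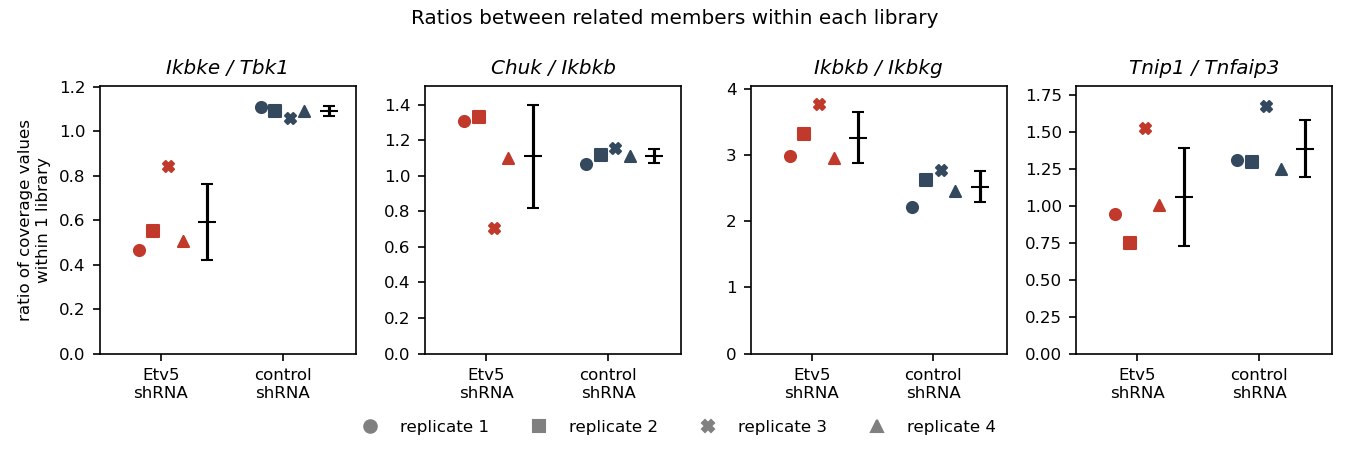
Ratio of the coverage values of related members within 1 library (y axis, from 0) for Ikbke to Tbk1, Chuk to Ikbkb, Ikbkb to Ikbkg and Tnip1 to Tnfaip3, in Etv5 shRNA and control shRNA libraries (x axis), with a marker per replicate number and the mean with SD as a black bar. The ratio of Ikbke to Tbk1 lies between 0.464 and 0.842 with the Etv5 shRNA and between 1.06 and 1.11 in controls.

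The order of the levels differed between the groups. With the Etv5 shRNA, Tnfaip3 (15.0) and Tnip1 (14.7) were the highest by mean, followed by Chuk (12.9), Tbk1 (11.5), Ikbkb (11.0), Cyld (8.79), Ikbke (6.51), Ikbkg (3.48), Tnip2 (3.08) and Zc3h12a (2.22). Only Ikbke against Ikbkg and Tnip2 against Zc3h12a had ranges that did not overlap among neighbours in that order. With the control shRNA, Tnip1 (23.0) came before Tnfaip3 (16.8), Zc3h12a (15.0), Ikbke (14.4), Chuk (13.4), Tbk1 (13.3), Ikbkb (12.1), Cyld (8.92), Ikbkg (4.85) and Tnip2 (3.70). There the ranges of Tnip1 and Tnfaip3, of Ikbkb and Cyld, and of Cyld and Ikbkg did not overlap, and those of all other neighbours did.

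Etv5 shRNA replicate 3 moved the 10 genes unequally. Relative to the mean of the other 3 libraries of its group, its level was 0.286 for Chuk, 0.345 for Cyld, 0.414 for Ikbkg, 0.476 for Tnfaip3, 0.508 for Ikbkb, 0.536 for Zc3h12a, 0.698 for Tbk1 and 0.811 for Tnip1. Tnip2 and Ikbke were instead higher in it, at 1.15 and 1.16. The annotated transcripts of Chuk, Cyld and Ikbkg have the lowest GC contents of the 10, at 41.3%, 43.5% and 44.7%, and those of Cyld and Ikbkg are the longest, at 8022 and 6994 bases. Tnip2 has the shortest, at 2022 bases, and Ikbke 3251 bases with a GC content of 54.6%. Other members did not follow this order. Zc3h12a, at 0.536, has 2755 bases and a GC content of 57.1%, and Tbk1, at 0.698, has 3024 bases and 45.4%. The part of length and GC content in these levels was not tested. In controls, replicate 3 was the lowest library for 9 of the 10 genes, all but Tnip1. With the length and GC trends of each library removed, the log2 fold changes of Chuk, Cyld and Ikbkg over 8 libraries were -0.04, 0.09 and -0.23. Little of these transcripts is shared with other genes: the share of 50-base stretches that also occur in a transcript of another gene was at most 1.42%, for Chuk, whose stretches recur in Gm17809. Exons of other genes overlap 2.02% of the Ikbkg transcript (G6pdx) and 1.85% of that of Ikbke (Gm28913 and Gm28914, antisense), and whether the authors averaged coverage by strand is not given in the sources used here.

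Beyond the 10 genes, 6 lists of genes around them were counted. Of 11 genes for NF-kB subunits and IkB proteins, 2 were lower, none was higher and 9 were not called by limma over 8 libraries. The median log2 fold change was -0.42, and -0.36 without Etv5 shRNA replicate 3. By the same call, 0.487% of all genes were lower over 8 libraries, and 2.06% without that library. The genes called were Nfkbia, encoding the inhibitor IkBα, at 18.8 ± 4.51 with the Etv5 shRNA and 49.3 ± 4.04 with the control shRNA (limma adjusted p 0.0183), and Nfkbiz. Nfkbiz, encoding the nuclear protein IkBζ, was at 4.21 ± 1.66 with the Etv5 shRNA and 19.6 ± 1.59 with the control shRNA (SD, n = 4 each, limma adjusted p 0.0112). Without Etv5 shRNA replicate 3 their log2 fold changes were -1.19 and -1.77 (limma adjusted p 0.000185 and 1.18e-05). Both calls over 8 libraries were lost without any 1 of the 4 control replicates (limma adjusted p 0.0658 to 0.0915 for Nfkbia and 0.0542 to 0.0633 for Nfkbiz) and with equal sums (0.134 and 0.0569). That of Nfkbia was lost as well without Etv5 shRNA replicate 1 or 4 (limma adjusted p 0.0625 and 0.0668). Bcl3, Nfkbid and Nfkbie, which encode further members of the IkB family, were called lower as well without Etv5 shRNA replicate 3, at log2 fold changes of -0.82, -0.61 and -0.38 (limma adjusted p 0.00293, 0.00984 and 0.0435). The genes of the DNA-binding subunits, Rela, Relb, Rel, Nfkb1 and Nfkb2, were not called in either fit, and Rela, encoding p65, was at 44.6 ± 2.48 with the Etv5 shRNA and 45.2 ± 1.32 with the control shRNA (SD, n = 4 each).

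Upstream of the IKK complex, none of 20 genes was called over 8 libraries by limma, with a median log2 fold change of -0.16, near that of all genes, and -0.01 without Etv5 shRNA replicate 3. At an unadjusted p under 0.05, 2 of the 20 were lower, where 5.99% of all genes were. The list covers the kinase TAK1 (Map3k7) and its adaptors, the kinase NIK (Map3k14), TRAF and cIAP proteins and the linear ubiquitin assembly complex, which builds the chains that NEMO binds. Map3k7 was at 12.4 ± 5.17 with the Etv5 shRNA and 12.7 ± 1.71 with the control shRNA (SD, n = 4 each), and its Etv5 shRNA mean without replicate 3 was 14.9. Without Etv5 shRNA replicate 3, 1 of the 20 was called lower and none higher, beside 2.06% of all genes lower and 1.08% higher. That was the kinase gene Map3k8. Map3k8 encodes TPL2, which is held in a complex with ABIN2. Its values were 0.265, 0.291, 0.0807 and 0.362 with the Etv5 shRNA, against 0.860, 0.834, 0.722 and 1.32 with the control shRNA. The groups did not overlap, and the log2 fold change without replicate 3 was -0.56 (limma adjusted p 0.0347). At these low levels the scale understates the change. Map3k8 passed the filter through its controls alone, as no Etv5 shRNA library reached 0.5, so it could only be called lower. With the filter at 1 it was not tested.

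Of 15 further genes for deubiquitinases and partners of A20 and CYLD, 13 were tested and none was called by limma in either fit. None reached an unadjusted p under 0.05 over 8 libraries. Without Etv5 shRNA replicate 3, 2 were higher at that threshold, Usp7 and Itch, beside 982 of all 11715 genes. Tnip3, called lower with no filter as given above, is on this list and was not among those tested. Tax1bp1, encoding an adaptor of A20, was at 25.0 ± 7.93 with the Etv5 shRNA and 27.0 ± 1.20 with the control shRNA, and its Etv5 shRNA mean without replicate 3 was 28.7. Otulin, encoding the deubiquitinase of linear chains, was at 20.6 ± 8.99 with the Etv5 shRNA and 15.6 ± 2.23 with the control shRNA (SD, n = 4 each). Its Etv5 shRNA mean rested on 34.0 in replicate 3 and was 16.1 without it. Of 14 genes for adaptors and substrates of TBK1 and IKKε, 11 were tested and none was called by limma in either fit, while 2 of the 11 were lower at an unadjusted p under 0.05 over 8 libraries, where 5.99% of all genes were. Those were Tbkbp1, a TBK1-binding adaptor, at 5.88 ± 1.02 with the Etv5 shRNA and 8.55 ± 0.435 with the control shRNA, and Sqstm1. Sqstm1, encoding the autophagy receptor p62, was at 179 ± 20.5 with the Etv5 shRNA and 249 ± 23.7 with the control shRNA (SD, n = 4 each). Both had a log2 fold change of -0.48 and were not called (limma adjusted p 0.379 and 0.415), nor were they without Etv5 shRNA replicate 3, at -0.43 and -0.40 (limma adjusted p 0.0745 and 0.0928). That list also holds Nap1l1, a nucleosome assembly gene with no known place among these adaptors, at 0.04 on the log2 scale.

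Of 13 genes for relatives of Regnase-1 and other RNA decay factors, 11 were tested and none was called by limma in either fit or reached an unadjusted p under 0.05, with median log2 fold changes of -0.18 over 8 libraries and 0.00 without Etv5 shRNA replicate 3. Zc3h12c, encoding Regnase-3, was at 1.70 ± 0.949 with the Etv5 shRNA and 2.51 ± 0.545 with the control shRNA (SD, n = 4 each), and its Etv5 shRNA mean without replicate 3 was 2.18. Zc3h12b did not exceed 0.0898, and Zc3h12d was at 0 in every library. Rc3h1, encoding Roquin-1, which shares target transcripts with Regnase-1, was at 5.85 ± 2.45 with the Etv5 shRNA and 7.15 ± 1.15 with the control shRNA (SD, n = 4 each), and its Etv5 shRNA mean without replicate 3 was 7.07. Of 12 transcripts listed as targets of Regnase-1 in other cells, 7 were tested. The standing of each as a target, that of Icosl included, was not checked. By limma, 3 were lower and none was higher in both fits. Of all genes, 0.487% were lower over 8 libraries and 2.06% without Etv5 shRNA replicate 3. The list genes called lower were Lcn2, the neutrophil chemokine gene Cxcl1, and Nfkbiz. Lcn2, encoding an iron-siderophore binding protein, was at 0.755 to 2.24 with the Etv5 shRNA and 62.2 to 86.6 with the control shRNA. Cxcl1 was at 2.44 to 5.77 with the Etv5 shRNA and 44.5 to 56.2 with the control shRNA. All are also known as targets of NF-kB. As given above, the call of Nfkbiz over 8 libraries was lost without any 1 control replicate, while Lcn2 and Cxcl1 were called in each of the 22 alternatives. The 7 had a median log2 fold change of -0.15, and -0.02 without Etv5 shRNA replicate 3, beside -0.11 and 0.00 for all genes. The others tested were Tfrc, Icosl, Rel and Ptgs2. Ptgs2, encoding cyclooxygenase-2, was at 34.3 ± 15.7 with the Etv5 shRNA and 30.4 ± 2.93 with the control shRNA (SD, n = 4 each). Without replicate 3 its Etv5 shRNA libraries averaged 41.8 and lay above every control, a log2 fold change of 0.45 that was not called (limma adjusted p 0.0719). The 5 under the filter, which that median leaves out, were Il6, Il12b, Il1b, Cxcl2 and Cxcl3. Il1b was at 0.0947 to 0.208 with the Etv5 shRNA and 0.476 to 1.09 with the control shRNA. With no filter, Il1b and Cxcl3 had log2 fold changes of -0.66 and -0.43 (limma adjusted p 0.0706 and 0.132). Those of Il6 and Cxcl2 were -0.08 and -0.10 (limma adjusted p 0.399 and 0.856). None of these was called, and Il12b was at 0 in every library.

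**Figure D4:**
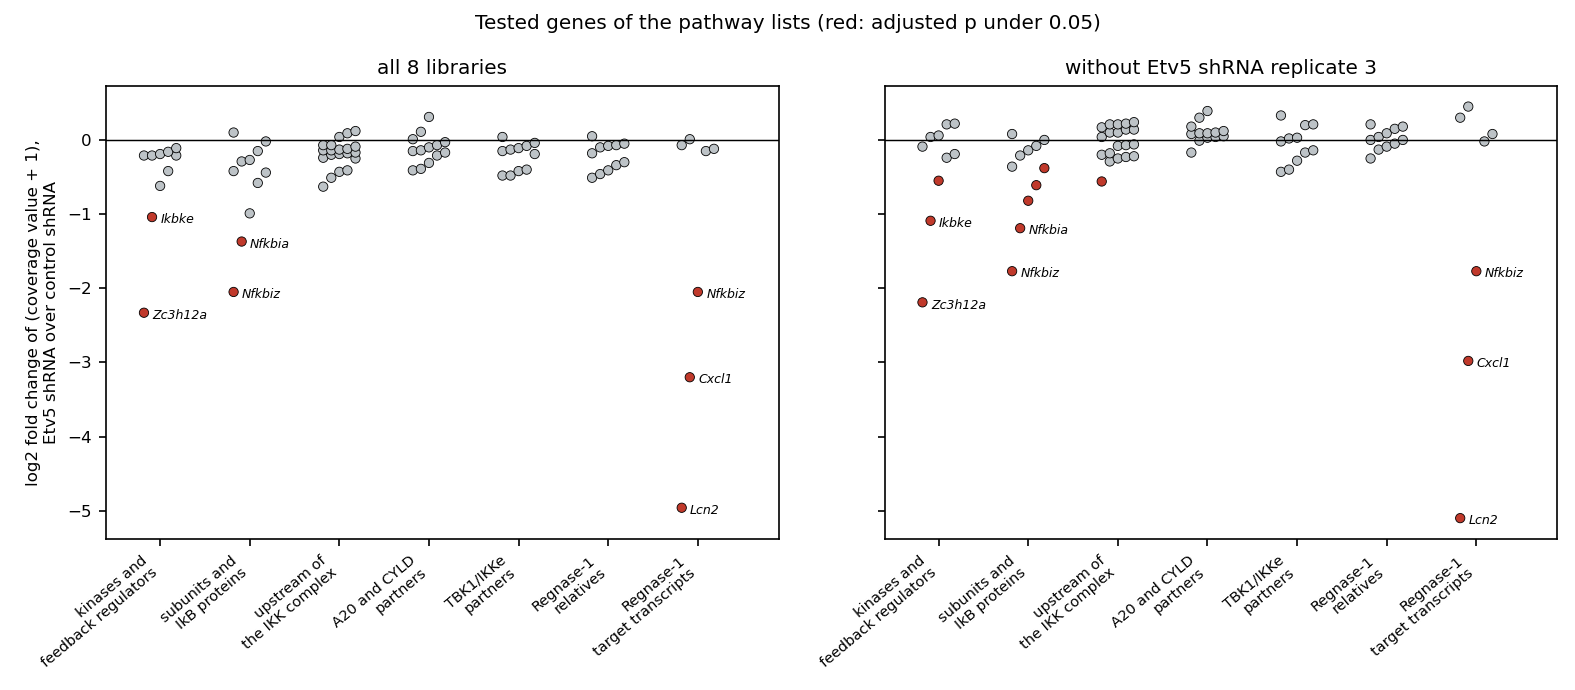
Log2 fold change of coverage value + 1 (y axis, Etv5 shRNA over control shRNA) of each tested gene in 7 lists (x axis), over 8 libraries on the left and without Etv5 shRNA replicate 3 on the right; red points have a limma adjusted p under 0.05 and the horizontal line is at 0. All red points lie below the line, the lowest being Lcn2 at -4.96 over 8 libraries, and the lists of A20 and CYLD partners, TBK1 and IKKε partners and Regnase-1 relatives hold none.

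The genes whose deviations from their own control mean were most like those of Zc3h12a on the log2(value + 1) scale over the 8 libraries were C3, Nfkbiz and Prss12, with mean absolute differences of 0.184, 0.214 and 0.219. C3 encodes the central complement protein and had 3.92 ± 1.19 with the Etv5 shRNA and 25.3 ± 5.75 with the control shRNA. Prss12, which encodes a serine protease, had 1.85 ± 0.621 with the Etv5 shRNA and 10.2 ± 0.880 with the control shRNA (SD, n = 4 each). For Ikbke they were Steap4, Alpl and Gng2, with mean absolute differences of 0.0859, 0.0937 and 0.113. Steap4, a metalloreductase gene, was at 0.00339 ± 0.00678 with the Etv5 shRNA and 0.991 ± 0.195 with the control shRNA. Alpl, a phosphatase gene, was at 0.427 ± 0.0989 with the Etv5 shRNA and 1.88 ± 0.0861 with the control shRNA (SD, n = 4 each). Gng2, encoding a G protein subunit, was at 1.15 ± 0.250 with the Etv5 shRNA and 3.58 ± 0.372 with the control shRNA. All have lower levels than Ikbke, where the added 1 compresses a larger fold into the same difference. Likeness here means similar size and scatter over the same 8 libraries and nothing more.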

How the data were processed

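RNA of 4T1 cells was measured in 8 libraries, 4 with an Etv5 shRNA and 4 with a control shRNA, grouped and numbered by their titles. Per the labels' protocols, TruSeq RNA libraries were run on a NovaSeq instrument, after RNA extraction by either of a pair of methods that the labels do not assign to samples. Reads were aligned with STAR 2.7.10a to mm10, per the submitters' processing notes. The deposited table holds a signal per gene and library, read from its values as coverage: multiplied by transcript length, the deposited values came to between 663 and 702 megabases per library. Which program and annotation made the averages is not given in the sources used here. Depth in reads is therefore unknown, and counting intervals could not be computed. The 26 rows whose symbols had become dates were left out.

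The deposited coverage values were transformed as log2(value + 1), which understates changes of low genes; folds are ratios of means of deposited values. A gene was tested if 4 or more libraries reached 0.5, which left 11715 genes, with limma 3.58.1 in R 4.3.3, an intensity trend and Benjamini-Hochberg adjustment over all of them. Ratios and single values were tested by exact permutation over libraries. Coordinates and transcripts came from GENCODE mouse release M21 on mm10, using the longest coding transcript, and promoter windows from RefSeq. A planned description of protein lengths and identities was not made. The fit was run on simulated data with independent noise. These held no library that stood apart and no length trend, so they cannot show the error rate of the fit here. The 10 genes, the lists and the settings were chosen with earlier results of these data known. Besides the 10 and Etv5, genes called in a list, up to 4 per direction, and the 3 genes most like each called one were named. Rela, Map3k7, Tax1bp1, Otulin, Tnip3, Tbkbp1, Sqstm1, Rc3h1, Zc3h12c, Ptgs2 and the other genes given with values were picked after their values were seen. Alternatives were a pseudocount of 0.1, no filter, a filter at 1, median-of-ratios scaling, equal sums, quantile normalization, removal of each library's length trend by lowess (span 0.3), array quality weights, a replicate block and leaving out each library. Removing length and GC trends together was added after seeing the data.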

Additional observations from a re-analysis of the deposited data

Results flagged for a closer look

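Of 28 sets of 4 libraries screened, 1 per gene or ratio and group, 4 held a library whose gap to its nearest neighbour took more of the range than Dixon's 95% critical value allows, where chance gives about 1.40. With the Etv5 shRNA, replicate 3 was the lowest for Cyld, at 3.63 beside 9.999 to 11.1 in the others (0.847 of the range). It was also the lowest for Ikbkg, at 1.69 beside 3.96 to 4.25 (0.889 of the range). With the control shRNA, replicate 2 was the highest for Tnip2, at 4.03 beside 3.58 to 3.60 (0.956 of the range), and replicate 3 was the highest for the ratio of Tnip1 to Tnfaip3, at 1.68 beside 1.25 to 1.31 (0.859 of the range).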

How the results depend on the processing

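Zc3h12a was called lower under all 22 alternatives, with log2 fold changes from -2.75 to -2.13 and limma adjusted p of at most 0.00628. Ikbke was called in 16 of 22 and lost its call at -0.88 with median-of-ratios scaling, -0.95 with quantile normalization and -0.91 with the length trend removed, and without control replicate 1, 2 or 4, where leave-one-out fits ran from -1.09 to -1.01. Tnip1 was called at -0.49 with the length trend removed, -0.48 with array weights and -0.48 with length and GC trends removed, and in leave-one-out fits, which ran from -0.68 to -0.55, without Etv5 shRNA replicate 3 alone. Without that library Tnip1 was also called at -0.54 with median-of-ratios scaling, -0.55 with the length trend removed, -0.55 with the block and -0.49 with both trends removed. The estimation of array weights stopped before it converged and left Etv5 shRNA replicate 3 a weight of 0.0265. Etv5 shRNA replicate 1 had 10.7, against 1.06 for replicates 2 and 4. All estimates for that group with array weights, and the calls made from them, therefore rest mostly on 1 library. The fit with array weights called Tnip2 lower at -0.21 and Chuk higher at 0.26 (limma adjusted p 0.0261 for both). It turned Cyld to 0.17 and Ikbkb to 0.05. Cyld was also positive with median-of-ratios scaling (0.04), quantile normalization (0.07), the length trend removed (0.08) and both trends removed (0.09). Without Etv5 shRNA replicate 3, the fits with median-of-ratios scaling, the length trend removed, the block and both trends removed gave 0.23, 0.11, 0.16 and 0.07 for Cyld, 0.22, 0.19, 0.19 and 0.15 for Chuk, and 0.07, 0.03, 0.02 and 0.04 for Ikbkb, and the first gave 0.05 for Tnfaip3. Ikbkg was called there with the length trend removed (-0.29) and with both removed (-0.33). Leave-one-out fits ran from -0.32 to 0.04 for Tnfaip3, -0.25 to 0.22 for Cyld, -0.38 to 0.21 for Chuk, -0.26 to 0.06 for Ikbkb, and the log2 ratio of Chuk to Ikbkb from -0.15 to 0.16.

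Among list genes, Lcn2 and Cxcl1 were called lower in all 22 alternatives, Nfkbiz in 17 and Nfkbia in 15. Of all genes, 57 were lower and 1 higher. Lower and higher counts were 37 and 0 with the pseudocount of 0.1, 110 and 26 with the length trend removed, 149 and 63 with both trends removed, 1671 and 1511 with array weights, and 28 to 241 and 0 to 127 over leave-one-out fits. Higher counts were 3 with no filter, 7 with median-of-ratios scaling, 0 with equal sums and 8 with quantile normalization. Without Etv5 shRNA replicate 3 they were 233 and 132 with median-of-ratios scaling, 557 and 472 with the length trend removed, 211 and 80 with the block, and 723 and 706 with both trends removed. The cause of these shifts was not tested. Deviations of libraries from their group mean correlated at 0.55, 0.09, 0.79 and 0.51 between same-numbered libraries. Etv5 shRNA replicate 1 lay closest to control replicate 4 (0.69). Etv5 shRNA replicate 3 lay closest to control replicate 3 (0.79), against -0.56, -0.13 and -0.72 with control replicates 1, 2 and 4. A single far library shapes such deviations for the rest of its group. Whether the numbers pair the samples was therefore not settled. With the block, 50 genes were lower and 1 higher, Zc3h12a and Ikbke kept their calls (limma adjusted p 0.00265 and 0.0433), and the permutation p of the Ikbke to Tbk1 ratio was 0.125, the smallest 16 exact sign assignments allow. Read depth is unknown, so no counting error can be given for low values.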
